A study of Mus musculus with 20 samples.

Results

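The paternal pronucleus of Tet3 CKO zygotes was compared with and without a block of DNA replication. The comparison rests on 4 of the 20 libraries of the series, chosen by their titles: 2 of paternal pronuclei from CKO zygotes cultured with aphidicolin and 2 from CKO zygotes cultured without it (mock). Methylation was read at CpG positions by reduced representation bisulfite sequencing, which sequences MspI fragments rich in CpG. Positions on autosomes with at least 5 reads in all 4 libraries were kept, 559071 in number. They were grouped into 112366 tiles of 100 bp and 78635 tiles of 1000 bp that held at least 2 such positions.

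CKO zygotes came from superovulated females of 7 to 10 weeks that carried Zp3-Cre, a transgene active in growing oocytes, with 1 floxed and 1 deleted Tet3 allele. WT zygotes came from f/f females. All zygotes were fertilised in vitro with C57BL/6J sperm, so by this design CKO zygotes lacked the maternal store of Tet3 while their paternal allele was intact. The files hold no measure of Tet3 itself or of replication, so the genotype and the replication block rest on the labels. Aphidicolin was given at 3 µg/ml from 5 hours after fertilisation. Paternal pronuclei were told from maternal ones by size and distance from the polar body, isolated by hand at 12 hours and frozen at 13 hours. A typical library started with about 20 pronuclei and took 21 cycles of PCR. Whether the replicates were separate animals or pools is not stated in the labels, so all spreads and p-values cover these libraries and may be technical.

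As background, a zygote holds the genomes of its parents in separate pronuclei until the first cleavage. The paternal genome arrives highly methylated and loses much of its signal in that cell cycle. Tet3, a dioxygenase supplied by the oocyte, oxidises 5-methylcytosine to 5-hydroxymethylcytosine and further products. Replication acts in another way: the new strand carries no methyl groups until a methyltransferase adds them, so each round dilutes the mark unless it is maintained. Aphidicolin inhibits replicative DNA polymerases and so prevents that dilution. Bisulfite sequencing reads 5-methylcytosine and 5-hydroxymethylcytosine alike, so a level below is the sum of both marks.

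The 2 aphidicolin libraries held 50098408 and 44907439 CpG calls, against 57891812 and 68056783 in the 2 mock libraries. The median depth at the shared positions was 42 and 36 reads with aphidicolin and 42 and 50 reads in mock. Both aphidicolin files list their chromosomes in unsorted order and both mock files in sorted order, so any difference in preparation or processing between the groups cannot be told apart from the treatment. Parental origin was checked with tiles defined by the gametes alone. Oocyte-only tiles, at 75% or more in oocytes and 25% or less in sperm, numbered 3025. They stood at 10.6% and 5.51% with aphidicolin and at 11.7% and 5.34% in mock, against 3.48% in sperm and 96.5% in oocytes. Replicate 1 of each group therefore carried more of the oocyte-only signal than replicate 2. Chromosome Y took between 0.00597% and 0.0186% of calls in the 4 libraries, against 3.44e-05% and 4.41e-05% in the 2 oocyte libraries. Mitochondrial DNA took 3.27% and 4.11% of calls with aphidicolin and 1.32% and 1.16% in mock, and its part in the results was not tested.

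The first question was whether the paternal genome of CKO zygotes was more methylated when replication was blocked. Both aphidicolin libraries stood above both mock libraries in each class of tiles that was methylated or partly methylated in sperm, and they stood close to the sperm level. Over all 559071 positions, mean methylation was 30.2% and 30.7% in the aphidicolin libraries and 20.7% and 21.2% in the mock libraries. The means were 30.5% ± 0.351 with aphidicolin and 20.9% ± 0.375 in mock (SD, n = 2 each), a difference of 9.56 percentage points. Each aphidicolin library lay above each mock library, with the 4 differences between 9.04 and 10.1 points. The exact two-sided permutation test gave p = 0.333, the smallest value that 2 libraries against 2 allow, and the same holds for each p of 0.333 between these 2 groups below.

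Tiles of 100 bp were then classed by sperm, which did not enter the comparison. Sperm-methylated tiles, with 75% or more in both sperm libraries, numbered 36830. They stood at 92.4% and 95.9% with aphidicolin and at 62.4% and 64.9% in mock. The groups did not overlap, and the libraries of a group differed by far less than the groups did. The means were 94.2% ± 2.49 with aphidicolin and 63.6% ± 1.76 in mock (SD, n = 2 each), 30.5 points apart, and the 4 differences lay between 27.5 and 33.5 (exact permutation p = 0.333). Sperm averaged 96.1% over the same tiles, so aphidicolin libraries held 97.9% of the sperm level and mock libraries 66.2% of it.

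Tiles that were partly methylated in sperm, above 25% and below 75% in both libraries, differed by a like share. These 4225 tiles stood at 50.6% and 51.0% with aphidicolin and at 34.6% and 35.9% in mock, against 50.1% in sperm. The difference was 15.5 points, with the 4 differences between 14.7 and 16.4 (exact permutation p = 0.333). Mock libraries thus held 70.4% of the sperm level in this class and aphidicolin libraries 101%. Tiles unmethylated in sperm, at 25% or less in both libraries, made up 67830 of the tiles, and there the groups overlapped. They stood at 3.45% and 2.49% with aphidicolin and at 2.92% and 2.53% in mock, against 1.16% in sperm. The difference was 0.241 points, with the 4 differences between -0.431 and 0.914 (exact permutation p = 1).

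The oocyte was then added to the classification. The 13634 tiles methylated in both gametes, at 75% or more in each gamete library, stood at 96.5% and 96.6% with aphidicolin and at 66.8% and 65.2% in mock. The aphidicolin libraries differed by less than 1 point from each other and from sperm, at 96.7%. The means were 96.5% ± 0.0633 with aphidicolin and 66.0% ± 1.13 in mock (SD, n = 2 each), 30.6 points apart, and the 4 differences lay between 29.7 and 31.4 (exact permutation p = 0.333). Replicate 1 was the higher library in mock here. The levels of maternal pronuclei in these tiles were not measured here, so the part of any maternal DNA in the mock level was not tested.

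Sperm-only tiles were defined with the gametes the other way round. Their 15296 members stood at 88.7% and 95.5% with aphidicolin and at 58.0% and 63.9% in mock. Replicate 1, which held more oocyte-only signal, was the lower library in both groups, and the groups did not overlap. The part of that signal in the level was not tested. The difference was 31.1 points, with the 4 differences between 24.8 and 37.4 (exact permutation p = 0.333). In the 3025 oocyte-only tiles the difference was -0.472 points, and in the 56293 tiles unmethylated in both gametes it was 0.254 points (exact permutation p = 1 for each).

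**Figure D1:**
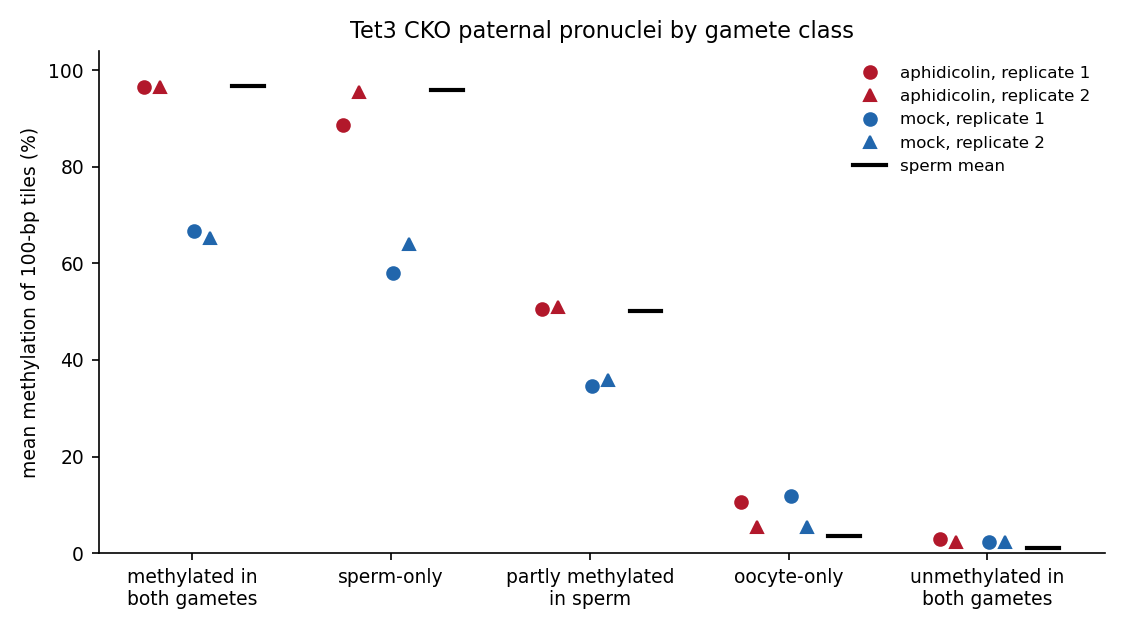
Mean methylation (%) of 100-bp tiles in 5 classes set by the gametes, with 1 point per CKO paternal library (red, aphidicolin; blue, mock; circle, replicate 1; triangle, replicate 2) and a black bar for the mean of the sperm libraries. In tiles methylated in both gametes the aphidicolin libraries sit at 96.5% and 96.6%, on the sperm bar, and the mock libraries at 66.8% and 65.2%, while the classes unmethylated in sperm show no separation by treatment.

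How the loss scaled with the starting level was followed in 10 bins of sperm methylation. In the bin of 0% to 10% aphidicolin libraries averaged 2.44% and mock libraries 2.35%, against 0.642% in sperm. In the bin of 10% to 20% aphidicolin libraries averaged 16.4% and mock libraries 12.4%, against 14.4% in sperm. From the bin of 20% to 30% upward, aphidicolin libraries lay close to the sperm level. In tiles at 40% to 50% in sperm they averaged 45.6% ± 1.27 (SD, n = 2), against 45.1% in sperm, and in tiles at 70% to 80% they averaged 74.6% ± 1.69, against 75.2%. Mock libraries averaged 32.5% ± 2.20 in the first of these bins and 52.4% ± 1.39 in the second (SD, n = 2 each). From the bin of 20% to 30% upward, mock libraries held between 65.9% and 74.0% of the sperm level. The loss in points therefore grew with the sperm level, while the share lost varied little: mock minus sperm was -6.44 points at 20% to 30% and -33.1 points at 90% to 100%. Both aphidicolin libraries lay above both mock libraries in each bin above 10% in sperm.

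**Figure D2:**
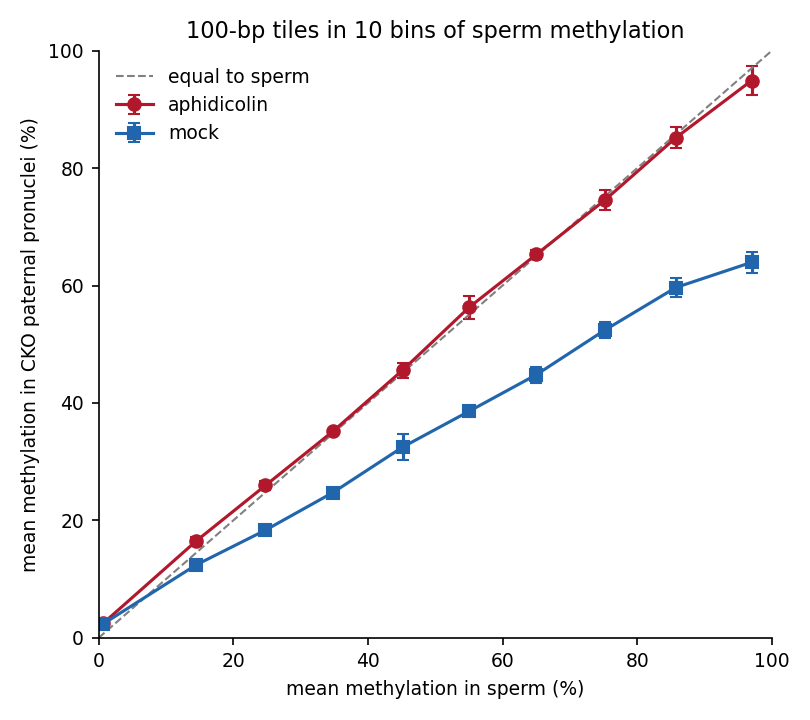
Mean methylation (%) of 100-bp tiles in CKO paternal pronuclei against their mean level in sperm (%), in 10 bins of sperm methylation (red, aphidicolin; blue, mock; mean ± SD of 2 libraries; dashed line, equal to sperm). The aphidicolin points lie near the dashed line. From the bin of 10% to 20% upward the mock points fall below it by an amount that grows with the sperm level. Mock minus sperm is -33.1 points in the last bin.

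The mean hides how single tiles were spread, and the spread differed by treatment as well. With aphidicolin most of the 36830 sperm-methylated tiles were read as fully methylated: 74.5% and 78.6% of them stood at exactly 100%, and 80.9% and 86.9% at 90% or more. In mock, 13.1% and 17.1% stood at 100%, and 18.8% and 23.6% at 90% or more. Sperm had 15.5% and 16.5% of these tiles at exactly 100% but 92.2% of them at 90% or more in each library. An exact 100% was thus more frequent with aphidicolin than in sperm itself, while 90% or more was less frequent. Mock libraries reached an exact 100% about as often as sperm. The class means were 94.2% with aphidicolin, 63.6% in mock and 96.1% in sperm. The share at exactly 100% therefore did not follow the mean level, and it does not show methylation beyond that of sperm. What made an exact 100% frequent with aphidicolin was not tested.

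Mock tiles occupied the whole scale. Between 25% and 75% lay 9.63% and 5.50% of the sperm-methylated tiles with aphidicolin, against 52.8% and 47.9% in mock. Tiles at 25% or less made up 2.17% and 0.380% with aphidicolin and 11.0% and 10.8% in mock. Tiles at exactly 0 made up 1.78% and 0.312% with aphidicolin and 5.81% and 6.35% in mock. The median tile stood at 100% in both aphidicolin libraries and at 65.3% and 68.4% in the mock libraries.

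**Figure D3:**
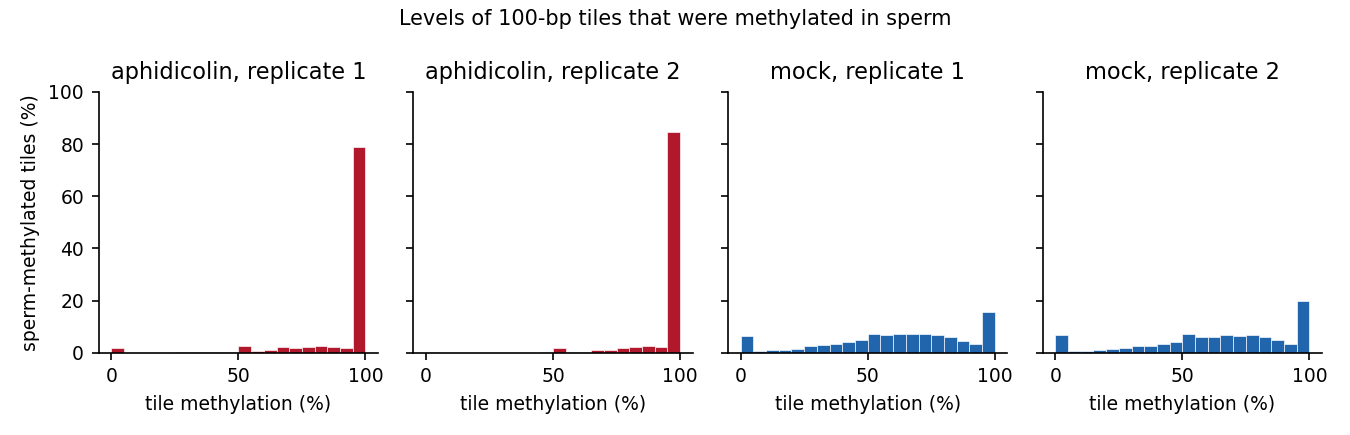
Share (%) of the 36830 sperm-methylated 100-bp tiles by their methylation (%) in bins of 5 points, with 1 panel per library (red, aphidicolin; blue, mock). The aphidicolin panels hold most tiles in the highest bin, and the mock panels spread over the whole scale with smaller peaks at both ends.

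Single tiles were also less alike between mock libraries. The mean absolute difference between the 2 libraries of a group, tile by tile in the sperm-methylated class, was 9.88 points with aphidicolin and 28.8 points in mock, against 2.62 points between the sperm libraries. The mock libraries thus had close class means and unlike single tiles. In partly methylated tiles the aphidicolin libraries also differed, by 32.9 points on average, against 25.7 points in mock and 7.16 points between the sperm libraries. Pronuclear libraries of 1 group thus disagreed on partly methylated tiles with or without aphidicolin, and by more than the sperm libraries did.

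Depth moved with the level in mock, while with aphidicolin the bins stayed within 1 point. Sperm-methylated tiles with under 50 calls per library averaged 94.0% ± 2.60 with aphidicolin and 58.6% ± 1.99 in mock (SD, n = 2 each). Those with 400 or more calls averaged 94.5% ± 1.89 with aphidicolin and 69.6% ± 2.21 in mock (SD, n = 2 each). The difference was accordingly 35.4 points in the shallowest tiles and 24.9 points in the deepest, with no overlap of the groups in any of the 5 depth bins. Local CpG density went the same way. Where 1000 bp held 2 to 4 positions covered in sperm, sperm-methylated tiles averaged 94.1% ± 2.71 with aphidicolin and 62.9% ± 1.91 in mock (SD, n = 2 each). Where it held 20 or more, they averaged 94.1% ± 2.02 with aphidicolin and 69.5% ± 0.649 in mock (SD, n = 2 each). Median calls per tile were 112 at the lowest density and 167 at the highest, so density and depth moved together and their separate parts were not tested.

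The difference was spread over the genome. On each of the 19 autosomes both aphidicolin libraries lay above both mock libraries in sperm-methylated tiles, and the difference between the means ran from 28.3 points on chromosome 3 to 32.0 points on chromosome 11. The same order held in all 413 windows of 5 Mb that had at least 20 such tiles. Their differences had a median of 30.5 points, with the lowest at 9.94 and the highest at 41.9. Coordinates here and below are those of the mm9 build.

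Both aphidicolin libraries lay above both mock libraries, with means at least 10 points apart, in 25398 100-bp tiles, which is 22.6% of all tiles. The reverse order held in 1767 tiles, or 1.57%. Of sperm-methylated tiles 22078 were in the first set, or 59.9%, and 147 in the second, or 0.399%. Of partly methylated tiles 1356 (32.1%) were higher and 279 (6.60%) lower. Of sperm-unmethylated tiles 966 (1.42%) were higher and 1170 (1.72%) lower, so the 2 directions were about equal there. Among 1000-bp tiles 30430 (38.7% of all) were higher and 1230 (1.56%) lower, with 27027 of 40356 sperm-methylated tiles higher. The median difference of a sperm-methylated 100-bp tile was 29.5 points, against 0 points over all tiles. These counts carry no test.

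Tests of single tiles called few of these. The quasi-binomial model, which lets the 8 paternal pronuclear libraries share an estimate of the spread between replicates, called 0 of 112366 100-bp tiles higher and 0 lower (0% of tiles) at an adjusted p under 0.05 and at least 10 points. At an unadjusted p under 0.05 it had 7555 of the 112366 tiles higher and 179 lower, counts that carry no correction for the number of tiles tested. The variance that the model estimated after shrinkage had a median of 54.4 times that of independent calls. Tiles had a median of 133 to 171 calls in the 4 libraries. The estimate came from tiles with calls of both kinds and was given to the rest by depth. Limma on arcsine square roots of the same levels called 2331 tiles higher (2.07%) and 149 lower (0.133%). Of those higher by limma 2141 were sperm-methylated and 63 sperm-unmethylated, and of those lower 11 were sperm-methylated and 113 sperm-unmethylated.

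In 1000-bp tiles the model called 219 tiles higher with aphidicolin (0.279% of 78635) and 1 lower (0.00127%), and limma called 4336 higher (5.51%) and 107 lower (0.136%). Of the 219 higher tiles 208 were sperm-methylated, 7 partly methylated and 2 sperm-unmethylated, and they lay on all 19 autosomes. They were deeper than most, with a median of 548 calls per library against 187.5 over all 1000-bp tiles. The model and limma thus gave unlike counts. Leaving out a library leaves 1 in its group and changes the tile set and the estimated spread. Such a count cannot show whether the calls rest on that library. How many single tiles pass a test is therefore not a stable quantity here. With 1 library left out, the difference in sperm-methylated tiles lay between 28.7 and 32.7 points. The differences over all positions and in partly methylated tiles moved by more than their spread between libraries. That in sperm-unmethylated tiles changed sign.

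The planned naming of 100-bp regions had nothing to name, so 1000-bp tiles were ranked by their difference instead, a choice made after the values were seen. The tile at chr9:114494001-114495000 stood at 100% and 100% with aphidicolin and at 0% and 0% in mock, over 4 positions, against 95.5% in sperm (adjusted p = 0.014 by the quasi-binomial F test and 0.278 by limma). The tile at chr2:178946001-178947000 had the same 4 levels over 3 positions (adjusted p = 0.036 by the quasi-binomial F test and 0.278 by limma). So did the tile at chr9:107446001-107447000, also over 3 positions (adjusted p = 0.0389 by the quasi-binomial F test and 0.0667 by limma). The tile at chr16:29893001-29894000 stood at 100% and 100% with aphidicolin and at 0% and 0.457% in mock (adjusted p = 0.044 by the quasi-binomial F test and 0.00173 by limma). These tiles were read as fully methylated with aphidicolin and as at or near 0 in both CKO mock libraries, far below the mock mean of their class. Coverage in WT was not required for them. WT mock libraries stood at 0% and 100% in the tile on chromosome 2 and at 0% and 38.7% at chr9:107446001-107447000. They stood at 0% and 0% in the tile on chromosome 16. At chr9:114494001-114495000 only WT mock replicate 2 had calls, at 0%.

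The first 10 such tiles, chromosome 18 left out, differed by 92.3 to 100 points and held 3 to 5 positions each. They had 122 to 295 calls per library on average, and as few as 33 in a single library. Their adjusted p by limma ran between 0.00173 and 0.278, and 5 of the 10 passed that test. Among those not described above, WT mock libraries stood at 100% and 27.2% at chr7:87478001-87479000 and at 100% and 46.0% at chr3:58827001-58828000. Only WT mock replicate 2 had calls at chr7:93987001-93988000, at 24.9%, and at chr4:53276001-53277000, at 100%. No WT mock library had calls at chr4:136949001-136950000 or chr6:120756001-120757000. The 1 tile called lower lay at chr11:19825001-19826000, with 38 positions. It stood at 0.0482% and 5.91% with aphidicolin and at 24.7% and 30.8% in mock, against 0.0618% in sperm (quasi-binomial F test, adjusted p = 0.0359). Limma gave it an adjusted p of 0.212. The level in CKO mock was thus well above sperm at this site, and with aphidicolin 1 library was near the sperm level. WT libraries stood there at 9.32% and 7.87% with aphidicolin and at 1.51% and 22.2% in mock. No gene names are given, since no annotation of this build was used here.

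Tiles with more positions gave a mixed picture. The 6 sperm-methylated 100-bp tiles with the most positions were taken for this, again after the values were seen. The tile at chr1:166753301-166753400, with 18 positions and 1476 calls per library, stood at 100% and 100% with aphidicolin and at 68.1% and 70.3% in mock. The tile at chr13:54184301-54184400, with 14 positions, stood at 99.9% and 95.1% with aphidicolin and at 69.9% and 72.6% in mock. The tile at chr2:104032601-104032700 stood at 100% and 92.6% with aphidicolin and at 46.2% and 55.7% in mock. In all 3 the groups were apart and the mock level was intermediate.

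The other 3 differed less or overlapped. At chr16:37882601-37882700 aphidicolin libraries stood at 100% and 91.4% and mock libraries at 56.6% and 97.0%, so the groups overlapped. The tile at chr11:3093401-3093500, with 23 positions, had 30896 calls per library, far above the median. It stood at 84.9% and 92.3% with aphidicolin and at 79.9% and 80.9% in mock, a difference of 8.20 points. The tile at chr13:120277101-120277200, with 4509 calls per library, was also far above the median depth. It stood at 80.9% and 77.6% with aphidicolin and at 66.8% and 74.0% in mock. Sperm stood at 89.0% in the tile on chromosome 11 and at 82.3% in that on chromosome 13, below the class mean of 96.1%. Depths over 10 times the median marked 10 sperm-methylated tiles in all, which stood at 87.4% and 90.02% with aphidicolin and at 74.6% and 79.7% in mock. Their difference of 11.6 points, with the 4 differences between 7.77 and 15.4, was smaller than that of the class (exact permutation p = 0.333 for aphidicolin against mock). The difference between these tiles and the rest of the class was not tested.

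A CpG is symmetric, so its strands can be read one by one at the CpGs where both were covered. Replication leaves an old strand paired with a new one in each daughter, and the reads here pool the strands of many pronuclei. The 4 libraries and sperm shared 42361 such CpG dyads, of which 5495 were methylated at 75% or more on both strands in both sperm libraries. The plus strand stood at 92.8% and 96.3% with aphidicolin and at 63.7% and 66.6% in mock. The minus strand stood at 92.2% and 96.5% with aphidicolin and at 63.6% and 65.7% in mock. Plus and minus means were within 1 point of each other in each library, so the lower level in mock was shared by the strands of the reference.

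Within a dyad the strands often disagreed in mock. The mean absolute difference between the strands of a dyad was 12.7 and 6.11 points with aphidicolin and 31.0 and 32.6 points in mock, against 3.40 and 3.39 points in sperm. Dyads with both strands at 75% or more made up 79.7% and 90.2% with aphidicolin and 17.7% and 22.6% in mock. Dyads with 1 strand at 75% or more and the other at 25% or less made up 6.57% and 2.75% with aphidicolin and 8.01% and 10.2% in mock. Dyads with both strands at 25% or less made up 0.291% and 0.0910% with aphidicolin and 1.86% and 1.62% in mock. Most mock dyads, 72.4% and 65.6%, were in none of these sets.

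The strands of a mock dyad differed about as much as the same strand did between mock libraries. That difference between libraries averaged 9.86 points with aphidicolin and 31.1 points in mock, against 3.29 points in sperm. The old strand can be either strand of the reference, and the reads pool both kinds of daughter. These levels therefore cannot show an asymmetry of old and new strands.

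**Figure D4:**
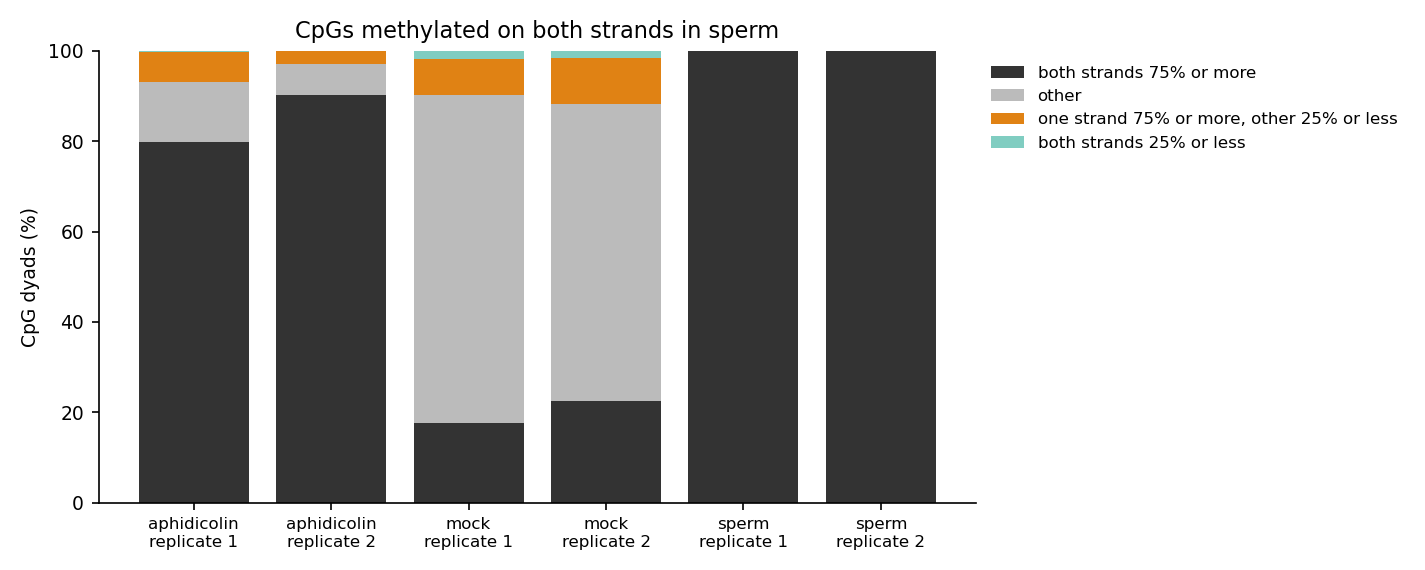
Share (%) of the 5495 CpG dyads methylated on both strands in sperm, by the state of their strands, with 1 bar for each CKO paternal library and each sperm library. Dyads with both strands at 75% or more make up 79.7% and 90.2% with aphidicolin and 17.7% and 22.6% in mock, where most dyads are intermediate on at least 1 strand; sperm is at 100% because the dyads were chosen in it.

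Tiles at the ends of the scale in both libraries of a group were counted, and these sets are chosen on the values and carry no test. Both mock libraries were at 90% or more in 2422 sperm-methylated tiles, or 6.58%, and at 25% or less in 640, or 1.74%. Both aphidicolin libraries were at 90% or more in 26229, or 71.2%, and under 50% in 28, or 0.0760%. Of 62197 tiles at 5% or less in sperm, all 4 libraries were at 5% or less in 49462, or 79.5%. Both aphidicolin libraries were at 25% or more in 584 of the 62197, or 0.939%, and both mock libraries in 705, or 1.13%. In 300 of them, or 0.482%, all 4 libraries were at 25% or more, which is a level above sperm with and without aphidicolin.

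The last question was whether the aphidicolin difference depended on genotype, and WT paternal pronuclei of the same design were set beside the CKO ones on the tiles covered in all 8 libraries. In the 7187 sperm-methylated tiles so covered, aphidicolin libraries averaged 94.0% ± 2.65 and mock libraries 66.8% ± 2.26 in CKO (SD, n = 2 each). In WT they averaged 93.1% ± 1.42 with aphidicolin and 55.3% ± 3.38 in mock (SD, n = 2 each). The aphidicolin difference was thus 27.2 points in CKO and 37.8 points in WT, or 10.6 points smaller in CKO (a value of -10.6). An exact permutation of genotype within treatment, over 36 arrangements, gave p = 0.222, or 0.583 adjusted over 7 such tests. This design cannot give a two-sided p below 0.0556, so no outcome could have passed 0.05. The 4 CKO differences lay between 23.7 and 30.7 points and the 4 WT differences between 34.4 and 41.2 points, so the ranges did not overlap. As in CKO, the WT aphidicolin files list chromosomes unsorted and the WT mock files sorted. Oocyte-only tiles, 1479 in this set, averaged 7.70% with aphidicolin and 8.11% in mock in CKO, against 4.56% with aphidicolin and 4.07% in mock in WT. The part of that signal in the difference between genotypes was not tested.

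In the 2722 tiles methylated in both gametes the CKO libraries averaged 96.6% ± 0.0525 with aphidicolin and 69.4% ± 0.0492 in mock (SD, n = 2 each). The WT libraries averaged 93.9% ± 1.44 with aphidicolin and 55.0% ± 3.18 in mock (SD, n = 2 each). The difference of the differences in these tiles was -11.7 points (exact permutation p = 0.333, adjusted 0.583). In the 3082 sperm-only tiles it was -10.9 points (exact permutation p = 0.167, adjusted 0.583). In the 1348 partly methylated tiles it was 0.924 points (exact permutation p = 0.889), with WT aphidicolin libraries at 41.7% ± 1.76 (SD, n = 2), against 48.2% in sperm. Over the 194766 positions covered in all 8 libraries the aphidicolin difference was 5.15 points in CKO and 6.79 points in WT (exact permutation p = 0.333). With this smallest p the tests show neither a difference between the genotypes nor equality.

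**Figure D5:**
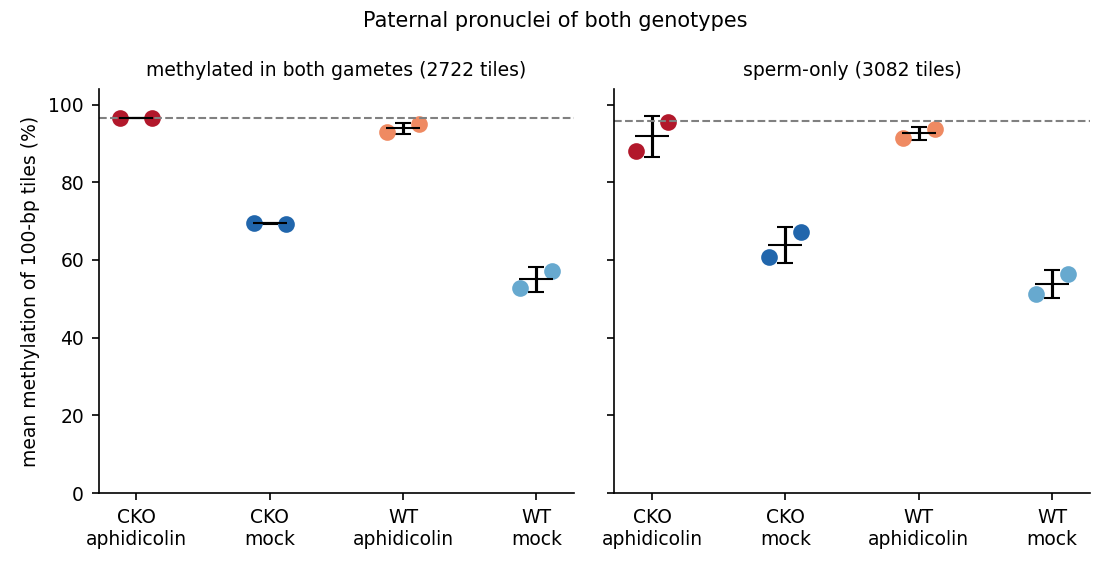
Mean methylation (%) of 100-bp tiles in paternal pronuclei of CKO and WT zygotes with aphidicolin and in mock, for tiles methylated in both gametes (left) and sperm-only tiles (right). Points are libraries, bars the mean ± SD of 2 libraries and the dashed line the sperm mean; in both genotypes the aphidicolin libraries lie above the mock libraries, and the CKO mock mean is 69.4% and the WT mock mean 55.0% in the left panel.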

How the data were processed

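Reduced representation bisulfite libraries of mouse gametes and pronuclei were used. The authors used Trim Galore and Bismark 0.10.1 with the mm9 build, per the submitters' processing notes. The deposited files give methylated and unmethylated counts of calls and a percent per CpG position, without normalisation. The deposited percent equals that computed from the deposited counts. Removal of PCR duplicates is not given in the sources used here, so calls are not independent molecules.

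Groups came from the labels. Tile levels are summed methylated calls over all calls. Sperm and oocyte classes needed at least 10 calls in each gamete library at positions of at least 5 reads. Means weight positions or tiles equally and were compared by exact two-sided permutation. Tiles were tested with a quasi-binomial model: dispersion from the 8 paternal pronuclear libraries, in groups expecting at least 5 calls of both kinds, shrunk with limma 3.58.1 squeezeVar with a trend on depth and a floor of 1, then an F test with Benjamini-Hochberg adjustment over all tiles. Shrinkage was complete, so tiles of like depth in effect shared 1 dispersion. Limma on arcsine square roots was the alternative. On counts simulated with the stronger overdispersion tried, the model and limma each recovered few of the changed tiles, and called few unchanged ones. The model recovered most only at weak overdispersion, and limma at neither. The changed tiles were drawn from those at low to intermediate levels, unlike most sperm-methylated tiles. Even the stronger overdispersion lay below that estimated from the data at the median depth. Recovery at the levels and overdispersion of these data was thus not tested. R 4.3.3, Python 3.11.15, numpy 2.4.6 and pandas 2.3.3 were used.

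Regions were to be groups of at least 2 called 100-bp tiles less than 500 bp apart, whose libraries do not overlap between groups, or else single called 100-bp tiles; none was called. The 1000-bp tiles, the densest tiles, the counts of tiles that do not overlap between groups, and the dyad, depth, density, window and extreme-tile summaries were added after values were seen. Members, lists and tests were chosen with earlier results of these data known. Planned promoter lists were not run, since no mm9 annotation was used here. The 8 maternal libraries were not used.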

Additional observations from a re-analysis of the deposited data

Results flagged for a closer look

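Chromosome X was outside the comparisons above, which used autosomes, and it gave a difference in the same direction. Its 234 sperm-methylated 100-bp tiles stood at 88.9% and 95.5% with aphidicolin and at 66.99% and 66.4% in mock. The means were 92.2% ± 4.72 with aphidicolin and 66.7% ± 0.396 in mock (SD, n = 2 each), 25.5 points apart, and the 4 differences lay between 21.9 and 29.1 (exact permutation p = 0.333). Its 865 sperm-unmethylated tiles stood at 3.94% and 2.66% with aphidicolin and at 3.99% and 3.02% in mock. Whether the difference on chromosome X departs from that on autosomes was not tested.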

How the results depend on the processing

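Of 112 alternatives, 74 left a mean within its spread or a count within 1.5 times its value, and 38 moved it. The difference in sperm-methylated tiles lay between 28.7 and 32.7 points in all alternatives run. That in sperm-unmethylated tiles changed sign without aphidicolin replicate 1 (-0.233 points). Leaving out 1 library at a time, the difference over all positions lay between 9.15 and 10.6 points, and that in partly methylated tiles between 14.8 and 16.5 points. The difference between genotypes over all positions was -1.03 points weighted by reads, and between -2.39 and -1.15 points with 1 library left out at a time.

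Counts of called tiles depended on the test and its settings. With dispersion from groups expecting 1 call of both kinds, 9 100-bp tiles and 1332 1000-bp tiles were higher and 17 1000-bp tiles lower. With the 4 CKO libraries alone the model called 3 1000-bp tiles lower, and at a difference of at least 25 points 0. Limma called 2331 100-bp tiles higher and 149 lower, and 4336 1000-bp tiles higher and 107 lower. Limma on the 4 CKO libraries alone, run after seeing the data, called 3292 and 154 100-bp tiles and 7120 and 171 1000-bp tiles, higher and lower in that order. Leaving out 1 library at a time, the model called between 0 and 1 100-bp tiles higher, between 2 and 32 1000-bp tiles higher and 0 lower. The lone library of a group then takes its spread from the remaining groups, and the tile set changes. These counts therefore cannot show whether the calls rest on a single library.

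The labels do not say that a replicate number marks a shared source. Deviations of same-numbered libraries from their group means correlated at 0.0181 over all 100-bp tiles and 0.0156 over sperm-methylated ones, while the means of oocyte-only and of sperm-only tiles deviated the same way in same-numbered libraries, so pairing was not settled. With the replicate block, limma on 8 libraries called 625 100-bp tiles higher and 42 lower, and 928 1000-bp tiles higher and 26 lower. With the replicate block on the 4 CKO libraries alone, added after seeing the data, it called 228 100-bp tiles higher and 2 lower. It called 0 1000-bp tiles in either direction. At an unadjusted p under 0.05 it had 15249 of 78635 1000-bp tiles higher and 818 lower. The cause of these changes was not tested.

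Depth, at a median of 36 to 50 reads per shared position, understates the error. The variance that the model estimated for 100-bp tiles had a median of 54.4 times that of independent calls, and 2 libraries a group bound every p.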

Other observations

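Methylation of mitochondrial CpGs was low in all 4 libraries: over 119 positions, weighted by reads, it was 0.168% and 0.192% with aphidicolin and 0.222% and 0.209% in mock. With each position weighted equally it was 0.0385% and 0.353% with aphidicolin and 2.33% and 5.43% in mock, so the size of that difference depended on the weighting.

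The 28 sperm-methylated tiles in which both aphidicolin libraries were under 50% averaged 21.9% and 23.5% with aphidicolin and 54.2% and 55.4% in mock, against 85.5% in sperm. The 640 sperm-methylated tiles in which both mock libraries were at 25% or less averaged 92.4% and 94.7% with aphidicolin and 6.40% and 5.18% in mock, and had a median of 73.5 calls per library, against 126.5 over the class. These sets were chosen on the values they show.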
